A study of Mus musculus with 64 samples.

Results

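The 10 genes described here form the core of the mammalian circadian clock and its best known output: the activators Arntl (also called Bmal1) and Clock, the repressors Per1, Per2, Per3, Cry1 and Cry2, the nuclear receptors Nr1d1 and Nr1d2, and the output transcription factor Dbp. Every probe set annotated to one of these symbols was taken, which gave 23 probe sets of the 45101 on the array, for 10 of 18194 named genes. The study hybridised RNA from microdissected hippocampus and prefrontal cortex (frontal cortex in the design text) of 4-month-old B6SJLF1 mice to Affymetrix 430 2.0 arrays, after 28 days of subcutaneous minipump infusion. Tg2576 mice, which over-express mutant human amyloid precursor protein, were set against wild-type littermates without the transgene. Mice of either genotype received either vehicle or PF-04447943, which inhibits PDE9A, an enzyme that degrades cyclic GMP. Each region thus had 4 groups of 8 arrays: PF-04447943 Tg2576, vehicle Tg2576, PF-04447943 wild-type and vehicle wild-type, with 64 arrays in all. Every group, vehicle wild-type mice included, carried an implanted pump. The human transgene of Tg2576 is driven by prion protein gene sequences and is not limited to 1 cell type. The time of day at which tissue was taken is not given in the sources used here.

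In the clock, a dimer of Arntl and Clock binds E-box sequences and switches on the Per and Cry genes, whose proteins then enter the nucleus and block that dimer. Nr1d1 and Nr1d2 (Rev-erb alpha and beta) repress Arntl through ROR elements, so that Arntl peaks roughly opposite to them, and Dbp, itself an E-box target, acts on D-boxes in genes such as the Per family. In mice, Dbp and the Nr1d genes swing widely over the day in many tissues, forebrain included, whereas Clock changes little. Per1 and Per2 also respond to neuronal activity and to glucocorticoids.

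The promoters of 5 members are shown because their mRNAs carried the results below: Cry1 and Dbp differed most between the regions, Arntl and Nr1d2 ran against each other between hippocampi of a group, and Per3 had the lowest p in the drug comparison. The windows are RefSeq sequences of GRCm38.p6, from 250 bases before to 50 after a start site, on the strand of the gene and 5′ to 3′. Capitals mark matches on either strand to an E-box (CACGTG), a D-box (TTANGTAA), a loose pattern for the core of a ROR element (TNGGTCA) or a cyclic AMP response element (TGACGTCA). N stands for any base, and in these windows no matches overlapped.
Cry1, chr10:85185005-85185304, minus strand: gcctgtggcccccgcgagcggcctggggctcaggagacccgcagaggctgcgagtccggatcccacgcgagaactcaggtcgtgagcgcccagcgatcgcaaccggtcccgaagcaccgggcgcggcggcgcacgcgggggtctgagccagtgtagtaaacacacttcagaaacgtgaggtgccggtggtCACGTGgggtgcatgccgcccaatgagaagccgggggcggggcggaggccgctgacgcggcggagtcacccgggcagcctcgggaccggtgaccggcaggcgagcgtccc
Per3, chr4:151044616-151044915, minus strand: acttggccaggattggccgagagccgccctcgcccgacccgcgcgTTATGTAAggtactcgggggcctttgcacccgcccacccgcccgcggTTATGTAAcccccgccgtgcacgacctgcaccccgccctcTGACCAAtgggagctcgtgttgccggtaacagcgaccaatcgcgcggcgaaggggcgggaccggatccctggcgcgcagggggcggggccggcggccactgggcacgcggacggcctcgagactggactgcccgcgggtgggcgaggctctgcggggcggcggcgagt
Arntl, chr7:113207215-113207514, plus strand: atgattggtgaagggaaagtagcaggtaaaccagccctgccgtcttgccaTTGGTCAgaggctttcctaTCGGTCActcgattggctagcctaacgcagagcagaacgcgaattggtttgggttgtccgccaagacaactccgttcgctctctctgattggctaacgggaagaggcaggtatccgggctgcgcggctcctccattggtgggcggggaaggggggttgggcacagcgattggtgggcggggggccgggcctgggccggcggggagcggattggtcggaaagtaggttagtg
Nr1d2, chr14:18239057-18239356, minus strand: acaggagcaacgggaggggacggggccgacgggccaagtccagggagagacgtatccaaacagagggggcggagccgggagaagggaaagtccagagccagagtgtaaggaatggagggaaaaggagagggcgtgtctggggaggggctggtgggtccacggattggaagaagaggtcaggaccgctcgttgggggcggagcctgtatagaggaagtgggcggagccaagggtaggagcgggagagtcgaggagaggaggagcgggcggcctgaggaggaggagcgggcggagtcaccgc
Dbp, chr7:45704997-45705296, plus strand: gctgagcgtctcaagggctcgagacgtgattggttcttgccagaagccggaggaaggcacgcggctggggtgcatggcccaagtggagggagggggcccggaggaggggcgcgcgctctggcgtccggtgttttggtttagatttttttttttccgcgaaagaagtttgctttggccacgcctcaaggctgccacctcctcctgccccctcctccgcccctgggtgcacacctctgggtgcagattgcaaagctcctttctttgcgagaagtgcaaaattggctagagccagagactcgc

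The table held 13 windows for 9 of the members, and Per2 was not matched. An E-box was found in Cry1 and Per1 (7.15% of all 32851 promoter windows hold one), and a D-box in Per3 alone of the members (2.32% of all windows). Matches to the loose ROR pattern were found in Arntl, Cry2 and Per3 (11% of all windows). The pattern leaves its second base open, so a match need not be a ROR element. The cyclic AMP response element was in 0 member windows and in 1.79% of all windows. The windows of Nr1d2 and Dbp held no match, which says only that these letters are absent from these bases. Matches are descriptions of sequence and not evidence of binding.

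Values are log2 of the deposited RMA intensities, and differences are log2 differences from limma with Benjamini-Hochberg adjustment over the 27022 probe sets above the filter. Of the 23 clock probe sets, 20 passed that filter; 2 for Per3 and 1 for Clock were too dim. Where a gene has several probe sets, the brightest stands for it and the others are given where they differ. Signal on 2 probe sets is not comparable, so levels are compared only within a probe set.

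One array went against its label before any clock gene was considered. The array labelled hippocampus PF-04447943 Tg2576 replicate 1 had a mean of 6.39 over 5 measured hippocampus markers, against 8.80 to 9.97 on the other hippocampal arrays and 5.93 to 6.70 in prefrontal cortex. Prox1, the dentate granule cell factor, read 4.76 there and 6.86 to 8.19 on the other hippocampal arrays, and the cortical layer gene Cux2 read 10.43 there and 6.37 to 8.69. Over 5 cortex markers its mean was 9.43, against 7.40 to 8.52 on the other hippocampal arrays and 8.88 to 10.59 in prefrontal cortex. On the remaining 31 hippocampal arrays and on all 32 cortical arrays the regional markers followed the labels.

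Hippocampal and cortical arrays could be assigned to the same animals. At 23 probe sets of 15 genes with separate high and low levels, none of them a clock gene, every hippocampal array matched 1 cortical array of its own group with 0 mismatches. For 26 of 32 pairs the replicate numbers were equal, and in the PF-04447943 Tg2576 group 6 pairs carried shifted numbers, so that hippocampal replicate 1 matched cortical replicate 2. Correlations between regions are given by either pairing for Dbp and Arntl. A limma fit between regions with a term for the matched animal was run as an alternative. Its results enter only the counts under other settings, given further below. For many counts, and for many values that the array labelled hippocampus PF-04447943 Tg2576 replicate 1 moved, values without it are also given. Striatal neuron markers averaged 8.06 to 11.47 across cortical arrays, and choroid plexus markers 6.04 to 10.71 across hippocampal arrays other than that one; their part in the results was not tested. In bulk tissue, fewer cells of a type and less RNA per cell cannot be told apart.

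The largest differences of the clock genes were between the regions. The main fit for contrasts between regions held no term for the animal and treated both arrays of an animal as independent. Its standard errors and p-values, those for drug and transgene effects by region included, thus leave the matching of arrays to animals out of account. Over all groups, 3 of the 20 clock probe sets were higher and 10 lower in hippocampus than in prefrontal cortex, where 31.4% of all tested probe sets were higher and 36.9% lower (68.3% past the threshold in either direction). The clock share, 13 of 20, lay near that background. The median difference of the 20 probe sets was -0.14, against -0.02 for all tested probe sets. In vehicle wild-type mice alone, 0 clock probe sets were higher and 8 lower by limma, against 18.4% higher and 22.1% lower of all tested probe sets (40.5% together); without both arrays of the animal on the array labelled hippocampus PF-04447943 Tg2576 replicate 1, 9 passed, against 41.9% of all. At an unadjusted p under 0.05, 1 was higher and 10 lower, where 48.3% of all tested probe sets had such a p. Over all groups that share of all tested probe sets was 70.7%.

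**Figure D1:**
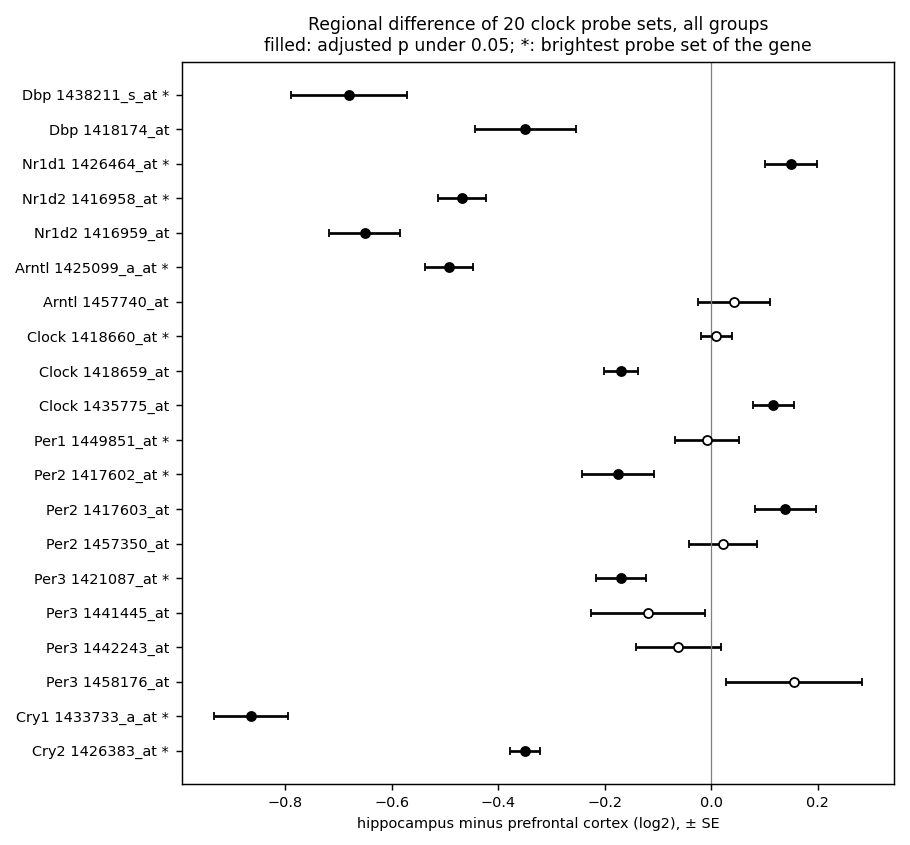
Differences in log2 intensity between hippocampus and prefrontal cortex (x axis, with standard errors) for the 20 clock probe sets above the filter (y axis), from the fit of all 8 groups. Filled points passed an adjusted p of 0.05. Among the brightest probe sets (asterisks), Cry1, Dbp, Arntl and Nr1d2 lie farthest to the left.

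Among the activators, Arntl, the dimer partner of Clock, ran from 8.45 to 9.28 with a median of 8.76 on 32 hippocampal arrays, and from 8.95 to 9.61 with a median of 9.28 on 32 cortical arrays. The ranges overlapped, but 27 of the 31 hippocampal arrays other than the one labelled PF-04447943 Tg2576 replicate 1 lay below every cortical array. All 32 matched animals had the lower value in hippocampus. Counts of matched animals here and below include the animal on that array, whose regional marker means lay in the cortical range. Such counts were not made for all tested probe sets. For Arntl the difference was -0.49 ± 0.05 (SE; limma adjusted p = 1.06e-14). Its second probe set, a dim one, differed by 0.04 ± 0.07 (adjusted p = 0.591). Clock itself, at 9.22 to 9.62 in hippocampus and 9.06 to 9.75 in prefrontal cortex, differed by 0.01 ± 0.03 on its brightest probe set (adjusted p = 0.793). Its other 2 probe sets gave opposite calls, -0.17 ± 0.03 for 1418659_at and 0.12 ± 0.04 for 1435775_at (adjusted p = 6.74e-06 and 0.00559), so no direction is given for the gene.

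Of the repressors, Cry1, a cryptochrome that holds the activator dimer inactive, showed the widest separation. It ran from 6.72 to 8.40 with a median of 7.13 in hippocampus and from 7.52 to 8.53 with a median of 8.03 in prefrontal cortex, a difference of -0.86 ± 0.07 (adjusted p = 5.06e-17). Of the hippocampal arrays, 30 lay below every cortical array; the array labelled hippocampus PF-04447943 Tg2576 replicate 1 held the value of 8.40, and the next highest was 7.56. Without both arrays of that animal the difference was -0.89 (adjusted p = 8.06e-21). Cry2, the second cryptochrome, ran from 9.56 to 9.96 in hippocampus and from 9.82 to 10.38 in prefrontal cortex, and 31 of 32 matched animals were lower in hippocampus. That difference, -0.35 ± 0.03 (adjusted p = 2.28e-17), was smaller than that of Cry1 but had the smallest standard error among the brightest probe sets.

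The period genes differed less. Per3 ran from 7.81 to 8.75 in hippocampus and from 8.14 to 8.81 in prefrontal cortex, with 25 of 32 matched animals lower in hippocampus and a difference of -0.17 ± 0.05 (adjusted p = 0.00125). Its 3 other tested probe sets did not pass the threshold, with differences of -0.12, -0.06 and 0.16. Per2 ran from 7.85 to 9.14 in hippocampus and from 7.85 to 9.08 in prefrontal cortex, a difference of -0.18 ± 0.07 (adjusted p = 0.0184), but its probe set 1417603_at differed by 0.14 ± 0.06 in the other direction (adjusted p = 0.026). Per1, on 1 probe set, ran from 7.97 to 9.19 in hippocampus and from 8.18 to 9.21 in prefrontal cortex, and differed by -0.01 ± 0.06 (adjusted p = 0.91). For Per2 the probe sets disagreed, and its call was lost with the signal range of the array as a covariate (-0.14, adjusted p = 0.0719) and with quantile normalization (-0.14, adjusted p = 0.0537). The Per3 call was lost on replicates 5 to 8 alone (-0.08, adjusted p = 0.136). For Per1 the regions overlapped almost throughout.

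The nuclear receptor pair split by region. Nr1d2 ran from 10.40 to 11.50 with a median of 11.29 in hippocampus and from 11.35 to 11.81 with a median of 11.68 in prefrontal cortex. All 32 matched animals were lower in hippocampus. The difference was -0.47 ± 0.05 (adjusted p = 7.32e-14), and -0.65 ± 0.07 on the second probe set. Nr1d1, which binds the same elements, ran from 8.49 to 9.51 in hippocampus and from 8.74 to 9.34 in prefrontal cortex, and was higher in hippocampus by 0.15 ± 0.05 (adjusted p = 0.0056), in 24 of 32 matched animals. In vehicle wild-type mice alone the Nr1d1 difference was 0.17 ± 0.10 and did not pass (adjusted p = 0.159), and on replicates 1 to 4 of all groups it was 0.06 (adjusted p = 0.418).

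Dbp, the PAR bZIP output factor, ran from 8.63 to 10.75 with a median of 10.30 in hippocampus and from 9.71 to 11.33 with a median of 10.83 in prefrontal cortex. The ranges overlapped widely. Of the 31 hippocampal arrays other than the one labelled PF-04447943 Tg2576 replicate 1, 6 lay below every cortical array. All 32 matched animals, the one on that array included, had less Dbp signal in hippocampus. The difference was -0.68 ± 0.11 (adjusted p = 1.81e-07) over all groups and -0.75 ± 0.22 (adjusted p = 0.00433) in vehicle wild-type mice. The second Dbp probe set gave -0.35 ± 0.09 over all groups. Without both arrays of the animal on the array labelled hippocampus PF-04447943 Tg2576 replicate 1, the regional differences were -0.67 for Dbp, -0.50 for Arntl, -0.47 for Nr1d2 and -0.36 for Cry2, and 13 of 20 probe sets passed as before.

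**Figure D2:**
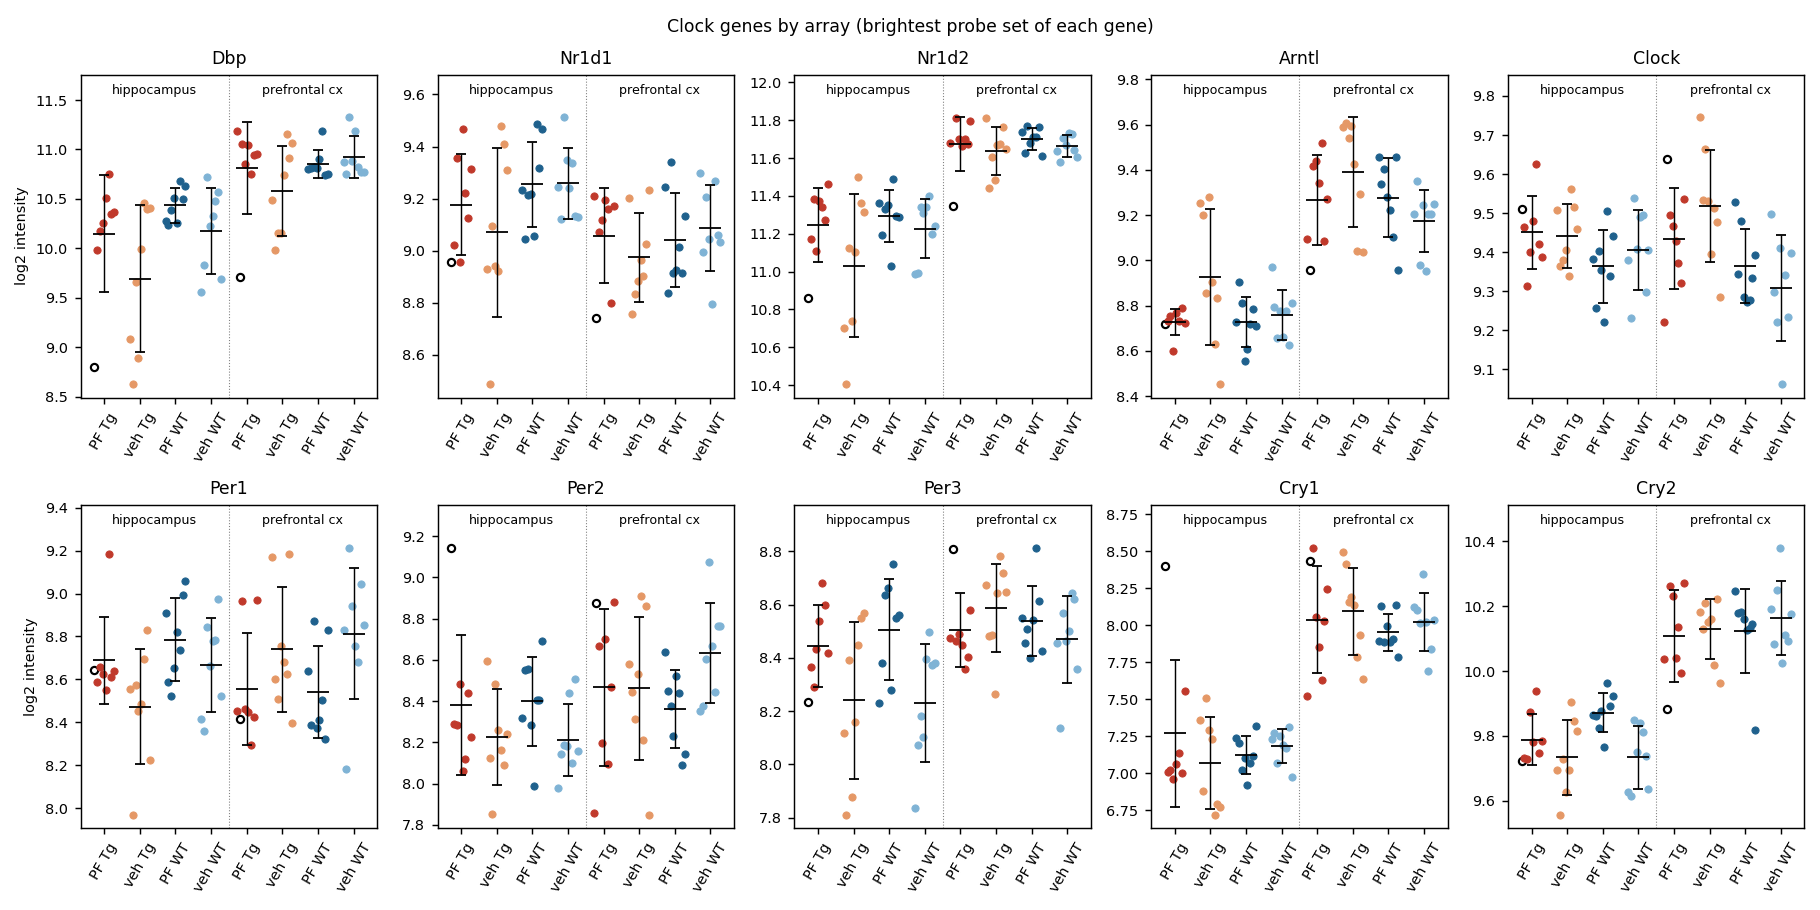
Log2 intensity (y axis) of the brightest probe set of each clock gene in the 8 groups (x axis: PF, PF-04447943; veh, vehicle; Tg, Tg2576; WT, wild-type), 1 point an array, with group means and standard deviations (n = 8). Open circles mark both arrays of the animal on hippocampus PF-04447943 Tg2576 replicate 1, which hold the lowest Dbp value of their groups, 8.80 and 9.71.

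Ordered by group means, all 4 cortical groups stood above all 4 hippocampal groups for Cry1, Cry2, Arntl, Nr1d2 and Dbp. Most neighbours in these orders did not differ beyond their spread: of the 7 neighbouring pairs of each gene, 0 had a gap above the larger of the 2 group standard deviations for Per1, Per2, Per3, Arntl, Clock, Nr1d1 and Dbp. Cry1 and Nr1d2 had 1 such gap each, between the lowest cortical and the highest hippocampal group, and Cry2 had 2. Of all tested probe sets, 31.4% were higher and 36.9% lower in hippocampus over all groups. Among 20 tested genes of 5 further lists of clock partners, cofactors, kinases and outputs, 4 were higher and 13 lower in hippocampus. These included Npas2, a forebrain relative of Clock (-0.88 ± 0.10), the ROR element activators Rora (-1.30 ± 0.10) and Rorb (-1.40 ± 0.10), the repressor Bhlhe40 (-0.59 ± 0.06) and the output factor Hlf (-0.82 ± 0.08). Rorb is also a cortical layer marker and was on the list used for the tissue check. Bhlhe41 was higher in hippocampus (0.22 ± 0.05) and Tef, a close relative of Dbp, differed by -0.01 ± 0.03.

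The drug was compared with vehicle within each region to ask whether inhibition of PDE9A changes the transcriptome in either genotype. With both genotypes together in hippocampus, limma called 0 of 20 clock probe sets, against 2.18% of all tested probe sets; 5 had an unadjusted p under 0.05, all higher with the drug, where 20.9% of all tested probe sets had one. Without the array labelled replicate 1, 9 had such a p, all higher with the drug, against 23% of all tested probe sets, and leaving out any 1 array gave 3 to 9. With quantile normalization 4 did, 2 of them higher (16.4% of all), and with the signal range of the array as a covariate 0 did (6.01% of all). Of the 20, 17 had a positive difference over all arrays and their median was 0.10, against 0.03 for all tested probe sets. With quantile normalization 14 were positive with a median of 0.05, and with the signal range as a covariate 11 were, with a median of 0.02; the medians of all tested probe sets were then -0.0017 and -0.0084. In prefrontal cortex 0 were called (0% of all tested) and 1, Per1, had an unadjusted p under 0.05, where 2.26% of all did. The drug comparisons within a genotype also gave 0 calls in either region (0% to 0.0037% of all tested probe sets). In hippocampus 1 clock probe set in Tg2576 and 2 in wild-type mice had an unadjusted p under 0.05, where 10.7% and 15% of all tested probe sets did; without the array labelled replicate 1 these were 5 and 4, against 9.98% and 16.4% of all. In prefrontal cortex 0 in Tg2576 and 1 in wild-type mice did, against 2.93% and 2.43% of all.

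Per3 had the lowest p of the clock genes in that hippocampal comparison. It ran from 8.23 to 8.68 (median 8.43) in PF-04447943 Tg2576 mice against 7.81 to 8.57 (median 8.28) in vehicle Tg2576 mice, and from 8.23 to 8.75 (median 8.55) in PF-04447943 wild-type mice against 7.84 to 8.50 (median 8.28) in vehicle wild-type mice. The groups overlapped, but 15 of 16 PF-04447943 arrays lay above the mean of their vehicle group. The difference was 0.24 ± 0.08 (limma adjusted p = 0.0773), 0.25 without the array labelled replicate 1 (adjusted p = 0.0648). Replicate number as a block gave the same difference with an adjusted p of 0.0205, and a second Per3 probe set, 1441445_at, then also passed (0.30, adjusted p = 0.048).

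The replicate numbers and the signal range both bore on this value. On replicates 1 to 4 alone the Per3 difference was 0.35 (adjusted p = 0.0283), and on replicates 5 to 8 alone it was 0.13 (adjusted p = 0.877). The signal range of an array, taken as the interquartile range over its log2 values, averaged 3.60 ± 0.11 in PF-04447943 Tg2576 against 3.52 ± 0.12 in vehicle Tg2576 hippocampi, and 3.65 ± 0.06 in PF-04447943 wild-type against 3.52 ± 0.08 in vehicle wild-type hippocampi (SD, n = 8 each). With that range as a covariate Per3 differed by 0.09 (adjusted p = 0.96), while Dbp (-0.01), Nr1d2 (-0.03) and Nr1d1 (-0.10) changed sign against the fit without it, where none of the 4 had passed.

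The other hippocampal drug differences were small or uneven. Cry2 ran from 9.72 to 9.94 (median 9.76) in PF-04447943 Tg2576 against 9.56 to 9.90 (median 9.71) in vehicle Tg2576 mice, and from 9.76 to 9.96 (median 9.87) in PF-04447943 wild-type against 9.61 to 9.85 (median 9.75) in vehicle wild-type mice. These overlapping groups gave 0.10 ± 0.03 (adjusted p = 0.116), and 0.10 (adjusted p = 0.102) without the array labelled replicate 1. Dbp gave 0.36 ± 0.18 (adjusted p = 0.244), and 0.45 (adjusted p = 0.0961) without the array labelled replicate 1. Arntl gave -0.12 ± 0.06 (adjusted p = 0.269) over all arrays. On replicates 1 to 4 alone it gave -0.25 (adjusted p = 0.043), and on replicates 5 to 8 alone 0.02. Clock gave -0.02 ± 0.04, Nr1d1 0.05 ± 0.07 and Cry1 0.07 ± 0.10 over all arrays. Without the array labelled replicate 1, Cry1 turned to -0.01 (adjusted p = 0.947), while Clock gave -0.02 and Nr1d1 0.07.

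Over both genotypes, the brightest probe sets of Per1 and Per2 had drug differences of opposite sign in the 2 regions. Per1 ran from 8.55 to 9.19 (median 8.63) in PF-04447943 Tg2576 against 7.97 to 8.83 (median 8.52) in vehicle Tg2576 hippocampi, and from 8.52 to 9.06 (median 8.78) in PF-04447943 wild-type against 8.36 to 8.97 (median 8.72) in vehicle wild-type hippocampi. In prefrontal cortex it ran from 8.29 to 8.97 (median 8.45) in PF-04447943 Tg2576 against 8.39 to 9.18 (median 8.65) in vehicle Tg2576 mice, and from 8.32 to 8.87 (median 8.46) in PF-04447943 wild-type against 8.18 to 9.21 (median 8.84) in vehicle wild-type mice. All these groups overlapped, with 13 of 16 PF-04447943 arrays above their vehicle mean in hippocampus and 12 of 16 below it in prefrontal cortex. The drug gave 0.17 ± 0.08 in hippocampus, the same without the array labelled replicate 1, and -0.23 ± 0.09 in prefrontal cortex. For Per2 in hippocampus it gave 0.17, and 0.12 without that array. This value is that of the brightest Per2 probe set only. The other tested ones, 1417603_at and 1457350_at, went poorly with it between hippocampi of a group (r = 0.34 and -0.05). In prefrontal cortex, 7 of 8 PF-04447943 wild-type arrays lay below their vehicle mean for Per2. In Tg2576 cortices 5 of 8 lay above theirs, so the opposite sign of Per2 came from wild-type mice. For Per1 the difference of the drug effects between the regions, 0.39 ± 0.12, did not pass by limma (adjusted p = 0.215), nor did that of Per2, 0.30 ± 0.14 (adjusted p = 0.487). By limma 0 of 20 clock probe sets passed for that difference, against 0.0296% of all tested probe sets, and 5 had an unadjusted p under 0.05 against 9.09% of all. Immediate early genes, which respond to activity as Per1 does, averaged 9.08 ± 0.57 in PF-04447943 Tg2576 against 9.21 ± 0.68 in vehicle Tg2576 cortices, and 9.14 ± 0.40 in PF-04447943 wild-type against 9.40 ± 0.46 in vehicle wild-type cortices (SD, n = 8 each). Their part in the Per1 values was not tested.

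**Figure D3:**
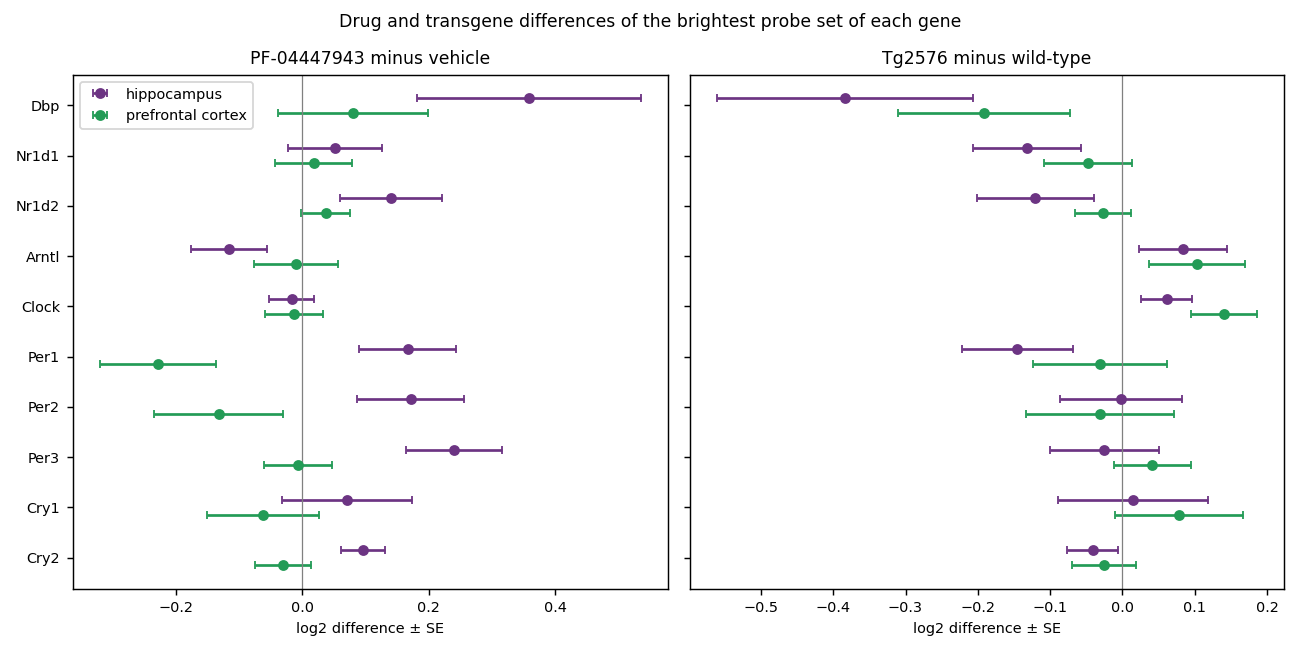
Differences in log2 intensity with standard errors (x axis) for the brightest probe set of each clock gene (y axis), PF-04447943 minus vehicle over both genotypes at left and Tg2576 minus wild-type over both treatments at right, with hippocampus and prefrontal cortex in 2 colours. No point passed an adjusted p of 0.05; the lowest was 0.0773, for Per3 in hippocampus.

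The transgene was compared with wild-type to ask whether Tg2576 mice differ at an age of 4 months. In hippocampus 0 of 20 clock probe sets passed by limma with both treatments together (0.0962% of all tested probe sets), and 2 had an unadjusted p under 0.05 (7.42% of all); without the array labelled replicate 1, 0 did (6.66% of all). In prefrontal cortex 0 passed (0.0259% of all) and 2, both of Clock, had an unadjusted p under 0.05 (11.3% of all). Under vehicle alone 0 passed in hippocampus (0.0111% of all) and 0 in prefrontal cortex (0% of all), with 1 and 3 at an unadjusted p under 0.05 (6.11% and 10.8% of all). Under PF-04447943 alone 0 passed and 0 had such a p in either region (4.69% of all in hippocampus and 3.39% in prefrontal cortex). The drug by transgene interaction called 0 clock probe sets in either region (0% of all tested), with 0 at an unadjusted p under 0.05 (3.43% of all in hippocampus and 3.06% in prefrontal cortex). The difference of the transgene effects between the regions also called 0 (0% of all tested), with 1 at an unadjusted p under 0.05 (6.09% of all).

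Clock had the lowest p of these. In prefrontal cortex it ran from 9.22 to 9.64 (median 9.45) in PF-04447943 Tg2576 against 9.27 to 9.53 (median 9.34) in PF-04447943 wild-type mice, and from 9.28 to 9.75 (median 9.52) in vehicle Tg2576 against 9.06 to 9.50 (median 9.32) in vehicle wild-type mice. The groups overlapped under either treatment. Over both treatments the difference was 0.14 ± 0.05 (adjusted p = 0.346), and under vehicle 0.21 ± 0.07 (adjusted p = 0.389). Its probe sets 1418659_at and 1435775_at gave 0.11 ± 0.05 and 0.08 ± 0.07. Clock also went with the signal range of the cortical arrays (r = 0.66). That range averaged 3.69 ± 0.15 in vehicle Tg2576 and 3.59 ± 0.13 in vehicle wild-type cortices. Under PF-04447943 it averaged 3.67 ± 0.14 in Tg2576 and 3.61 ± 0.13 in wild-type cortices (SD, n = 8 each). Arntl gave 0.10 ± 0.07 in prefrontal cortex and 0.08 ± 0.06 in hippocampus, and neither passed.

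Dbp carried the largest transgene differences, and its spread set their error. In hippocampus it ran from 8.80 to 10.75 (median 10.30) in PF-04447943 Tg2576 against 10.23 to 10.68 (median 10.44) in PF-04447943 wild-type mice, and from 8.63 to 10.46 (median 9.83) in vehicle Tg2576 against 9.56 to 10.72 (median 10.28) in vehicle wild-type mice. In prefrontal cortex it ran from 9.71 to 11.19 (median 10.95) in PF-04447943 Tg2576 against 10.74 to 11.19 (median 10.81) in PF-04447943 wild-type mice, and from 9.98 to 11.16 (median 10.62) in vehicle Tg2576 against 10.75 to 11.33 (median 10.85) in vehicle wild-type mice. The lowest arrays in both regions were from Tg2576 mice, while the highest ones of each Tg2576 group reached or nearly reached those of wild-type mice. Over both treatments the difference was -0.38 ± 0.18 in hippocampus (adjusted p = 0.643) and -0.19 ± 0.12 in prefrontal cortex (adjusted p = 0.501). Without the array labelled replicate 1 the hippocampal value was -0.29 (adjusted p = 0.776).

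Array by array, the low Dbp values belonged to few animals and recurred in both regions. In vehicle Tg2576 hippocampi, replicates 1 to 4 read 9.09, 8.63, 9.66 and 8.90, and replicates 5 to 8 read 9.998, 10.46, 10.40 and 10.41. In the matched cortices of these animals, which carry the same numbers, replicates 1 to 4 read 10.49, 9.98, 10.15 and 10.16, and replicates 5 to 8 read 10.74, 11.16, 10.92 and 11.07. The 2 sets of numbers did not overlap in either region. Arntl ran the other way in the same mice: 9.25, 9.20, 8.86 and 9.28 on hippocampal replicates 1 to 4 against 8.90, 8.63, 8.83 and 8.45 on replicates 5 to 8, with 1 array of each set out of order. In prefrontal cortex Arntl averaged 9.58 ± 0.03 on replicates 1 to 4 and 9.20 ± 0.19 on replicates 5 to 8 (SD, n = 4 each). In the other 3 groups the same split of numbers was smaller: hippocampal Dbp averaged 9.81 ± 0.68 and 10.49 ± 0.18 in PF-04447943 Tg2576, 10.35 ± 0.12 and 10.52 ± 0.19 in PF-04447943 wild-type, and 10.08 ± 0.50 and 10.27 ± 0.40 in vehicle wild-type mice (replicates 1 to 4, then 5 to 8; SD, n = 4 each). The signal range of the vehicle Tg2576 arrays split by the same numbers. In hippocampus it was 3.37 to 3.42 on replicates 1 to 4 and 3.58 to 3.67 on replicates 5 to 8. In prefrontal cortex it was 3.77 to 3.90 and 3.52 to 3.66. Its part in the split of Dbp and Arntl was not tested. The labels do not say what the numbers stand for.

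The animal on the array labelled hippocampus PF-04447943 Tg2576 replicate 1 stood apart on its other array as well. Dbp read 8.80 on that array and 9.71 on its cortical match, each the lowest of its group, where the next lowest were 9.99 and 10.75. Nr1d2 read 10.86 and 11.35, again the lowest of each group, and Cry1 read 8.40 and 8.44. As given above, the means of the regional marker lists on the first array lay in the cortical range, though not every marker did. Without it, Dbp in PF-04447943 Tg2576 hippocampi averaged 10.34 ± 0.24 (SD, n = 7), against 10.15 ± 0.59 with it (SD, n = 8), and Cry1 averaged 7.11 ± 0.20 against 7.27 ± 0.50.

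**Figure D4:**
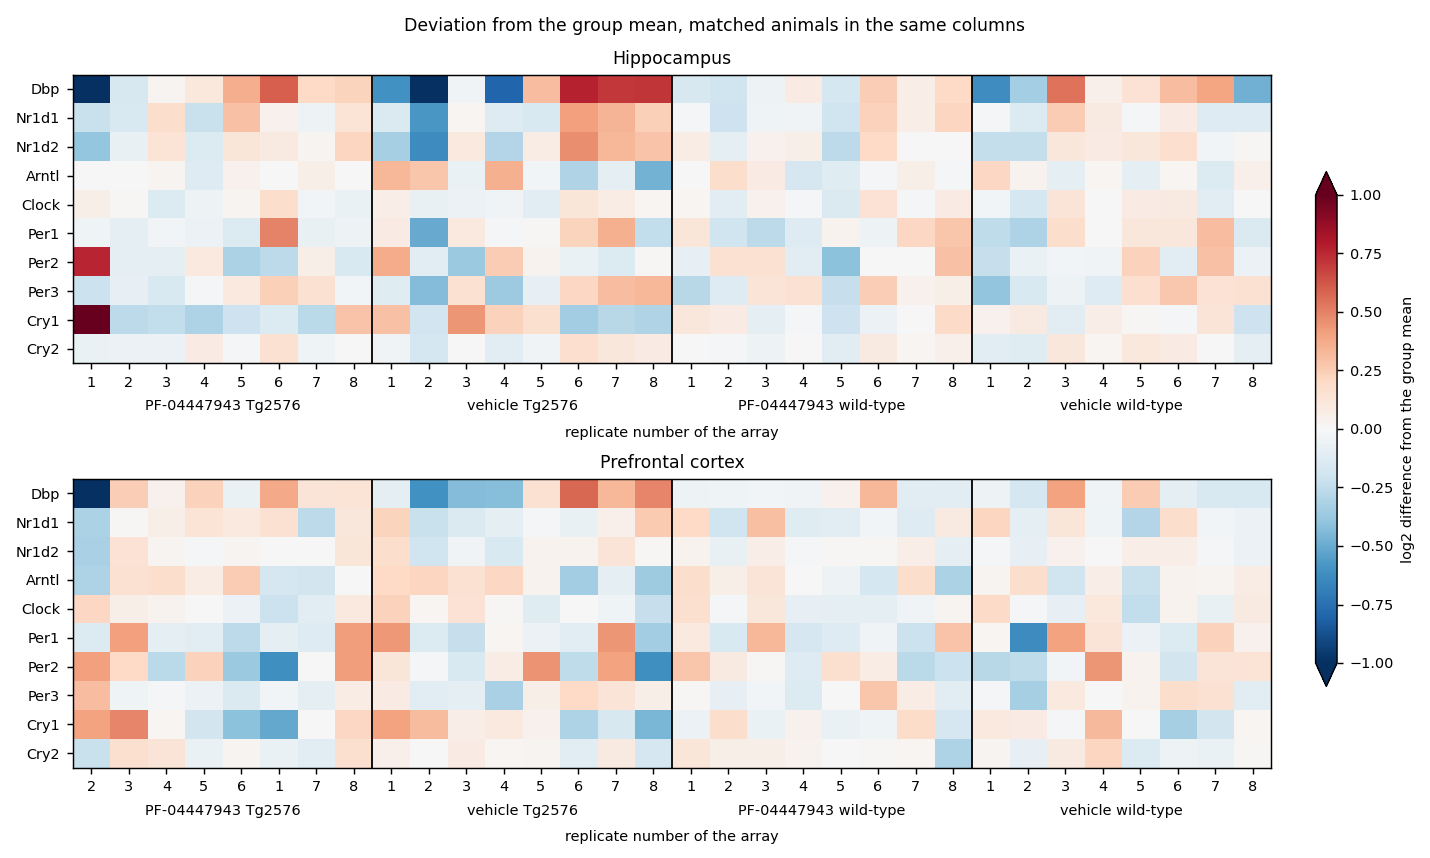
Difference of each array from its group mean in log2 units (colour; scale cut at -1 and 1) for the 10 clock genes (rows) in hippocampus (upper panel) and prefrontal cortex (lower panel). Each column is 1 matched animal, in the same place in both panels, labelled by its replicate number in that region; Dbp is below its group mean in the first column of both Tg2576 groups in both panels.

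Genes differed in how much they varied between animals of a group. The standard deviation within groups was 0.53 for Dbp in hippocampus, above 97.8% of all tested probe sets, and 0.35 in prefrontal cortex, above 89.9%. Without the array labelled replicate 1 it was 0.46 in hippocampus, above 97.4%. Clock and Cry2 varied least in hippocampus, with 0.09 each, above 7.16% and 6.27% of all tested probe sets. Nr1d2 varied by 0.24 in hippocampus, above 78.5% of all, and by 0.10 in prefrontal cortex, above 10.7%. The median over all tested probe sets was 0.17 in hippocampus and 0.18 in prefrontal cortex.

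Within groups the clock genes varied together in hippocampus. After the group means were removed, 15 of 45 pairs of members had a correlation above 0.5 over 32 arrays and 5 had one below -0.5, where 5.52% and 3.01% of all pairs of tested probe sets did. Dbp went with Nr1d2 (r = 0.87), Cry2 (0.79), Per3 (0.75) and Nr1d1 (0.74), and Nr1d1 with Nr1d2 (0.85). Arntl ran against Dbp (-0.67), Nr1d2 (-0.64), Per3 (-0.61) and Cry2 (-0.60). These points share their arrays, and the deviations of Dbp, Nr1d1, Nr1d2, Per3 and Cry2 also went with the signal range of the array (r from 0.60 to 0.62, and from 0.61 to 0.74 without the array labelled replicate 1). With the signal range removed as well, 12 pairs lay above 0.5 and 4 below -0.5, but the share of all pairs was not computed for that setting. Immediate early genes ran against Dbp in hippocampus (-0.67 over the 31 arrays other than the one labelled replicate 1), and their part in the clock values was not tested.

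In prefrontal cortex 5 of 45 pairs had a correlation above 0.5 and 1 below -0.5 over all 32 arrays. That share was no higher than among all pairs of tested probe sets there (15.6% and 11%). Nr1d2 again went with Dbp (0.72, and 0.53 without both arrays of the animal described above), but Arntl and Nr1d2 did not run against each other there (0.12, and -0.12 without that animal). Arntl ran against Dbp at -0.35, and Cry2, which ran against Arntl in hippocampus, went with it in cortex (0.63). The arrays of the animal described above weighed on these values. Without both of them, Arntl against Dbp was -0.79 in hippocampus and -0.76 in prefrontal cortex, and Per3 with Dbp in cortex was 0.61 in place of 0.17. Then 12 cortical pairs lay above 0.5. The share of all pairs of tested probe sets was not computed without that animal, so these 12 have no such background. In cortex Cry1 (r = 0.77), Clock (0.66), Arntl (0.59) and Cry2 (0.52) went with the signal range and Dbp ran against it (-0.50).

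The same animals had high or low Dbp in both regions. Over 32 matched animals, with group means removed, the hippocampal and cortical deviations of Dbp correlated with r = 0.82 and rho = 0.67 (permutation p = 1e-05, the smallest the resamples can give, and 6e-05; 10 genes compared). Without the 2 animals farthest from the median r was 0.70, and 1.04% of all tested probe sets had an r at least as high. Arntl had r = 0.61 and rho = 0.64 (permutation p = 0.00015 and 0.00016), 0.50 without the 2 farthest, and 4.37% of all probe sets reached it. Nr1d2 had r = 0.56 and rho = 0.52 (permutation p = 0.00115 and 0.00278), but 0.31 without the 2 farthest. Cry1 followed at 0.45, while Clock and Cry2 had values of -0.10 and -0.20. Of all tested probe sets, 8.96% had an r above 0.5, and 3 of 10 clock genes did.

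These relations were checked with other pairings and subsets. Paired by replicate number instead, which is the wrong partner for 6 animals, the values were 0.45 for Dbp and 0.58 for Arntl. The animal of the array labelled hippocampus PF-04447943 Tg2576 replicate 1 had regional marker means in the cortical range on both arrays. Without it, Dbp had r = 0.75, Arntl 0.64 and Nr1d2 0.48. Within replicates 1 to 4 Dbp had 0.84 and within replicates 5 to 8 0.67 (16 animals each), and Arntl had 0.44 and 0.61. These used deviations from the means of all 8 arrays of a group, so a shift between the 2 sets of numbers stayed in. They cannot show whether that shift carries the relation. Paired by number, Dbp had 0.17 and 0.59 this way, and -0.03 and 0.22 with means taken within each set. Arntl had 0.40 and 0.63, and then 0.14 and 0.52. For matched animals such means were not used. Over all matched animals, with the signal range removed as well, Dbp had 0.52, Nr1d2 0.55 and Arntl 0.19.

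**Figure D5:**
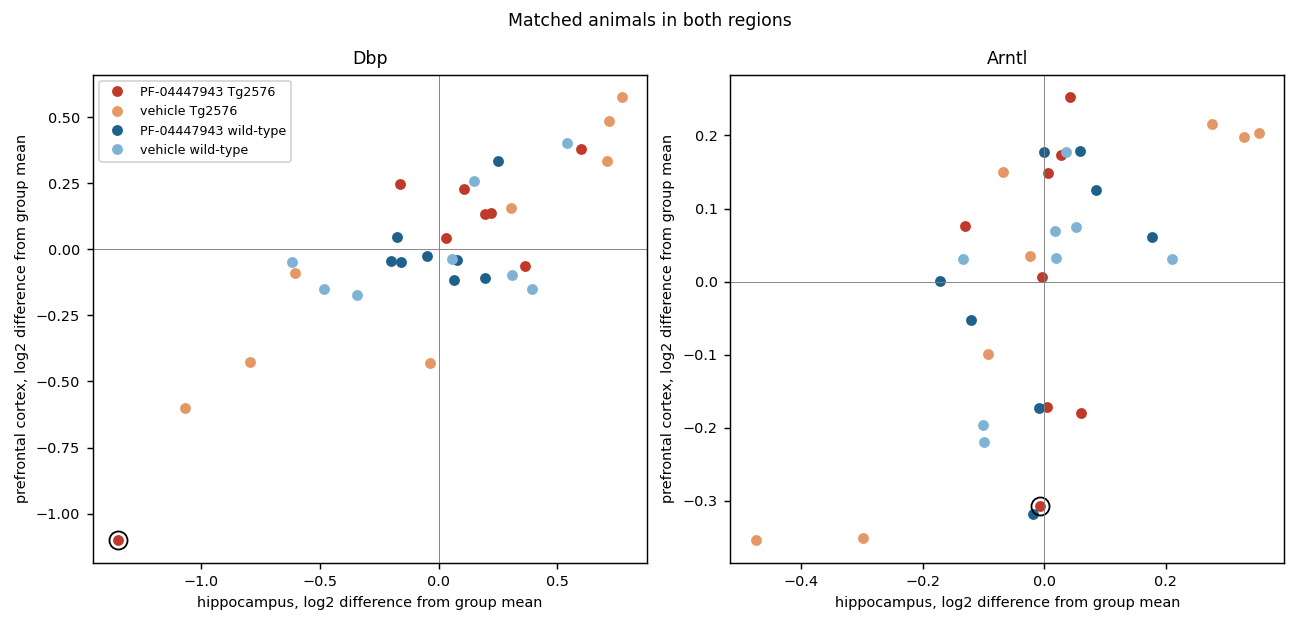
Deviation from the group mean in hippocampus (x axis) and prefrontal cortex (y axis), log2 units, for Dbp (left) and Arntl (right), 1 point for each of 32 matched animals, coloured by group. The ringed point is the animal of the array labelled hippocampus PF-04447943 Tg2576 replicate 1; r was 0.82 for Dbp and 0.61 for Arntl with it, and 0.75 and 0.64 without it.

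Within-group patterns were compared among 12961 genes in hippocampus and 12925 in prefrontal cortex, over 32 arrays of a region. The genes most like a member were taken as the 3 highest correlations. For Dbp in hippocampus these were Pbx2, Ciart and Firre (r = 0.88 each), and in prefrontal cortex Ciart (0.80), Celf1 (0.80) and Pax9 (0.77). Ciart is a clock repressor known in mouse, whereas the order in hippocampus changed to Kifc2, N4bp2l1 and Atp11b (0.90, 0.89 and 0.89) without the array labelled replicate 1. For Nr1d2 in hippocampus they were Dbp, Nr1d1 and Xiap (0.87, 0.85 and 0.83), and without that array Dbp, Tef and Nr1d1. For Per2 in prefrontal cortex they were Irs2, Egr2 and Egr1 (0.77, 0.76 and 0.76), of which both Egr genes are immediate early genes. For Cry1 in hippocampus Cdkn1a led with 0.85, but without that array Pard3b led with 0.72. Opposite to Arntl in prefrontal cortex, the PAR bZIP factor Tef stood second (-0.81).

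Of the 20 tested genes on the further clock lists, 0 passed in any drug, transgene or interaction comparison of either region by limma. Of all tested probe sets, 0% to 2.18% did. In the hippocampal drug comparison with both genotypes together, 3 of the 20 had an unadjusted p under 0.05, all higher with the drug. Of all tested probe sets 20.9% had one. The median difference of the 20 genes was 0.05, against 0.03 for all tested probe sets. Wee1, a cell cycle kinase gene under clock control in mouse liver, had the lowest adjusted p of these, 0.111 with a difference of 0.13 ± 0.05, and Tef differed by 0.12 ± 0.05 (adjusted p = 0.16).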

How the data were processed

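RNA from hippocampus and prefrontal cortex of 8 mice a group was hybridised to 64 Affymetrix arrays. The deposited values are intensities on a linear scale, which the authors computed by RMA, per the submitters' processing notes. The sources used here do not give its software, its version or the set of arrays normalized together. The intensities as deposited were converted to log2 with no further normalization. Arrays have no read depth, so their number, 8 a group, limits the precision.

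Of 45101 probe sets, 34958 carried 1 gene symbol in the platform annotation, 932 several and 9147 none, and 64 were controls. The 10 genes and all gene and marker lists were chosen with earlier results of these data known. A probe set belonged to a gene when the annotation gave that symbol alone, and the brightest probe set on average over the 64 arrays stood for the gene. Clock-related genes on further lists were named when past the threshold, up to 4 a list and comparison with the largest change, and so were the 3 genes most correlated with each member. Other genes on these lists were named after their values were seen.

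Probe sets with a mean below the 40th percentile were left out. Groups were compared with limma 3.58.1 in R 4.3.3 (lmFit, contrasts and eBayes, two-sided, Benjamini-Hochberg over all 27022 probe sets tested, threshold 0.05), with the 4 groups of a region, or all 8 groups for contrasts between regions, in 1 fit. The fit was tested on simulated data. In the main fit for contrasts between regions no term stood for the animal, so both arrays of an animal counted as independent. Array deviations from group means were correlated, and between regions tested with 100000 permutations (two-sided, scipy 1.17.1). Values were handled with pandas 2.3.3 and numpy 2.4.6 under Python 3.11.15 and data.table in version 1.17.8, and figures were drawn with matplotlib 3.10.9. Arrays of 1 animal were matched from probe sets whose values fell into separate levels at least 1.0 log2 apart. Across groups, arrays of the same replicate number correlated with a mean r of 0.11 in hippocampus and 0.23 in prefrontal cortex over 48 pairs each, with values from -0.35 to 0.51 and from -0.64 to 0.67, so the numbers were not taken to pair animals of different groups. Alternatives were filters, normalizations, covariates, blocks and left-out arrays.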

Additional observations from a re-analysis of the deposited data

Results flagged for a closer look

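In each of 80 groups (10 genes in 8 groups of 8 arrays) the highest or lowest array was set against the spread of the others, and 9 stood apart by a gap over Dixon's critical value for 8 arrays. Chance marks about 1 in 20 groups, and the 10 genes share their arrays.

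Of these 9, 5 lay on the arrays of 1 animal, labelled hippocampus PF-04447943 Tg2576 replicate 1 and prefrontal cortex PF-04447943 Tg2576 replicate 2. On the array labelled hippocampus, Dbp was the lowest of its group at 8.80 (next 9.99), Cry1 the highest at 8.40 (next 7.56) and Per2 the highest at 9.145 (next 8.48). On the cortical array Dbp was lowest at 9.71 (next 10.75) and Nr1d2 lowest at 11.35 (next 11.66).

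The other 4 values lay on 4 other PF-04447943 arrays. Per1 was highest on hippocampus PF-04447943 Tg2576 replicate 6, at 9.19 (next 8.66). Arntl was lowest on hippocampus PF-04447943 Tg2576 replicate 4, at 8.60 (next 8.72). Cry2 was lowest on prefrontal cortex PF-04447943 wild-type replicate 8, at 9.82 (next 10.13), and Dbp was highest on prefrontal cortex PF-04447943 wild-type replicate 6, at 11.19 (next 10.90).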

How the results depend on the processing

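Calls of the clock probe sets stayed at 0 in all drug, transgene and interaction comparisons, under every setting and with each array left out in turn, except the hippocampal drug comparison over both genotypes. There 0 became 2 with a replicate block (number as a fixed term), 1 with numbers 1 to 4 and 5 to 8 as 2 blocks, 1 at a threshold of 0.1, and 2 on numbers 1 to 4 only, a subset chosen after seeing the data. Leaving out 1 array gave 0 to 1: Per3 was called without vehicle Tg2576 replicate 8 (0.26, adjusted p = 0.0373) and Clock 1418659_at without vehicle wild-type replicate 5 (0.12, adjusted p = 0.0466). Between the regions, 13 calls over all groups stayed at 13 with any array left out and were 8 with 1 probe set a gene, where only 10 were tested; the 8 of vehicle wild-type mice ran from 7 to 9 with 1 array left out and from 6 to 11 under other settings.

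Between regions, 1 gene had r above 0.5 when arrays were paired by number, the pairing planned as the main one, and 3 by matched animals. It was 0 by number with the signal range removed. Chosen after seeing the data, matched animals gave 2 without the animal of hippocampus PF-04447943 Tg2576 replicate 1, 2 with arrays centred on their median and 2 with the signal range removed. Among members, the 5 hippocampal pairs below -0.5 became 2 with probe sets averaged and 0 on numbers 5 to 8. The 5 cortical pairs above 0.5 became 11 with median centring, 14 on numbers 1 to 4 and 12 without that animal. The 1 cortical pair below -0.5 became 0 with median centring, 3 with probe sets averaged and 2 on numbers 5 to 8. Shares of all pairs of tested probe sets were not computed for these settings. The causes were not tested.

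Signal over background limited 2 Per3 probe sets and 1 Clock probe set, with mean log2 levels of 5.76, 5.67 and 5.53, which were not tested. Of the brightest probe sets, Per2, Per3 and Nr1d1 lost regional calls in 19 fits, with the direction kept. No difference that passed the threshold changed sign in these fits. Differences that passed in neither fit changed sign in 344 cases, among them the hippocampal drug values of Cry1, Dbp, Nr1d2, Nr1d1 and Arntl given above.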

Other observations

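Per1 and Per2 in prefrontal cortex went with the mean level of 9 immediate early genes (r = 0.57 and 0.65 over 32 arrays, group means removed), and so did Cry1 (0.69) and Clock (0.69). The mean level of 6 glucocorticoid response genes went with Clock (0.73) and Cry1 (0.59) there and ran against Dbp (-0.65). Endothelial cell markers gave 0.68 for Clock, 0.67 for Cry1 and -0.55 for Dbp, and the dentate granule cell list 0.69, 0.68 and -0.69. Of that list, Prox1 and Dsp did not pass the filter in prefrontal cortex, with arrays at 4.91 to 6.10 and 3.89 to 4.94. The cortical values include prefrontal cortex PF-04447943 Tg2576 replicate 2. It had the lowest Dbp of its group and the highest glucocorticoid, endothelial and dentate list means. Values without that array were not computed. Clock, Cry1 and Dbp also followed the signal range in cortex (r = 0.66, 0.77 and -0.50). All these values share their arrays and are given without a test. Glucocorticoid response genes averaged 9.44 ± 0.19 in PF-04447943 Tg2576, 9.43 ± 0.23 in vehicle Tg2576, 9.40 ± 0.09 in PF-04447943 wild-type and 9.35 ± 0.15 in vehicle wild-type cortices (SD, n = 8 each). Of the 6, 0 were called by limma in any drug or transgene comparison of either region, against 0% to 2.18% of all tested probe sets. An unadjusted p under 0.05 was found for 0 to 2 of them, and for 2.26% to 20.9% of all tested probe sets. In hippocampus Per1 went with the difference of 3′ and 5′ control signals, a measure of RNA degradation (r = 0.65 over 32 arrays, and 0.67 over 31 without the one labelled PF-04447943 Tg2576 replicate 1).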
